A study of Rattus norvegicus with 9 samples.

Results

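The genes described here were chosen by their measured levels in rat bone marrow mesenchymal stem cells (MSCs) and in the neural progenitor-like cells induced from them. A gene had to lie under 0.1 FPKM in all 3 MSC libraries and at 1 FPKM or more in all 6 induced libraries, with an annotated transcript of at least 300 exonic bases. FPKM, the fragments mapped to a transcript relative to its length and to the depth of the library, were added over the transcripts of a gene. With gene IDs taken as each file writes them, 17 of 20973 genes met these limits. For 11 of the 17, however, the gene ID is in none of the 3 MSC files, where the same transcripts stand under a provisional ID, and these 11 genes were expressed in MSCs. After this had been seen, the gene ID of each annotated transcript was carried to every file by its transcript ID. Unannotated isoforms were added to the gene with which they shared an ID in their own file. With these sums 28 genes met the same limits. Only 6 genes are in both sets: Pla2g2a, Higd1b, Ccl22, Ass1, Ntn1 and AABR07054614.1. The name of the group, silent in MSCs and switched on, thus holds for 6 of the 17 genes of the first reading, and by its own construction for the 28 of the second. The 28 genes are described in most detail below and the 11 others after them, 39 genes in all.

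The Control group was untreated MSCs at passage 3, from Sprague Dawley rats. Group A was induced for 3 days with EGF and bFGF, and Group B for 3 days with EGF, bFGF and IGF1. Each group holds 3 libraries of polyadenylated RNA. Per the methods of the study, the induced cells grew in NeuroCult NS-A, in plates with low attachment, so the growth factors, the medium and growth in suspension cannot be told apart against the MSCs. The widths of the deposited confidence intervals imply depths between 38.9 M and 51.1 M mapped fragments per library. The labels number the libraries of a group without saying which rat each came from, so p-values measure the spread between these libraries. Per the same methods, the MSCs came from 3 rats, and cells induced with EGF and bFGF were derived from these MSCs. The groups can therefore share donors, and the main fit used below does not pair their libraries.

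MSCs are adherent stromal cells that give rise to bone, cartilage and fat, and that secrete matrix, chemokines and growth factors. EGF and bFGF act through receptor tyrosine kinases and are the usual mitogens of neurosphere culture, and IGF-1 signals through its own receptor to the PI3K and AKT pathway. In bulk RNA, a few cells with much of a transcript and many cells with little of it cannot be told apart.

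Promoter windows of 250 bases before to 50 after the RefSeq start (build GRCr8) were found for 15 of the 22 named genes among the 28. The windows of the genes in both sets that had an entry are shown, with that of Vcam1, which was added after its matches had been seen because it held the most kinds of motif. Capitals mark matches to any of 6 motifs searched on both strands: the TATA box, written TATAAA, the AP-1 motif, written TGANTCA with any base at N, the hypoxia response motif, written ACGTG, the E-box, written CACGTG, so that each E-box match is also a hypoxia match, the cyclic AMP response element or CRE, written TGACGTCA, and the NF-kB motif, named only. Pla2g2a lies at chr5:156359475-156359774 on the plus strand, Ccl22 at chr19:10270310-10270609 on the minus strand, Ass1 at chr3:35149480-35149779 on the plus strand and Vcam1 at chr2:206742734-206743033 on the minus strand.
Pla2g2a: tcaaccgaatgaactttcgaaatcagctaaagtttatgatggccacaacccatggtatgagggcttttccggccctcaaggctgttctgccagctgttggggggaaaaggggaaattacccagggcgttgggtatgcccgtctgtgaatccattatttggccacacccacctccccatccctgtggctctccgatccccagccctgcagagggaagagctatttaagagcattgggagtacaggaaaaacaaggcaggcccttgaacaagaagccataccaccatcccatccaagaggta
Ccl22: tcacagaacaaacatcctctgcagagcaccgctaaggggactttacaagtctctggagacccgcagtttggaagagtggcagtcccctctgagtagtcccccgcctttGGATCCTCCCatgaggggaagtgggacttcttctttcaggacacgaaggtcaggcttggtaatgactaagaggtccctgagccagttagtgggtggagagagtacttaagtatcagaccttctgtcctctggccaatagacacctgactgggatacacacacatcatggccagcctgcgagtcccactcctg
Ass1: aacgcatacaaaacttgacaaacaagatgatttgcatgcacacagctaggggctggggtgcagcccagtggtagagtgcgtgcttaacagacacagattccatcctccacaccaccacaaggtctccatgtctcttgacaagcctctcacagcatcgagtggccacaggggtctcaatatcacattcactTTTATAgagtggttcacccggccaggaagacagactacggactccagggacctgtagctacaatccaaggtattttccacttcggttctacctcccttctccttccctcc
Vcam1: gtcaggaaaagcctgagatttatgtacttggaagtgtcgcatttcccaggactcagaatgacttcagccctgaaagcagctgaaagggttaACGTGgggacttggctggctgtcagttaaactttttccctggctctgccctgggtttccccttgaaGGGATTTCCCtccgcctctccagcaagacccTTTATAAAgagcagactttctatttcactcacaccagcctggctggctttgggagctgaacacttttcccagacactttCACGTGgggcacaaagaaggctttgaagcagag

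The NF-kB letters were in 7 of the 15 windows (Prg4, Tlr2, Ccl22, Vcam1, Gbp5, Slco2b1 and Phkg1), and in 19.3% of all 33469 promoters of this length. The TATA box was in 3 windows (Prg4, Vcam1 and Ass1) against 14.2% of all promoters. The hypoxia letters were in 3 (Vcam1, Slco2b1 and Phkg1) against 19.3%. The AP-1 letters were in Il16 alone of the 15 (7.33% of all promoters), the E-box in Vcam1 alone (6.42%), and the CRE in 0 of 15 (1.83%). The windows had a median GC content of 53.7%, and all promoters 51.7%. A match is a run of letters and not a measured binding site.

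Among the 28 genes, levels after induction were mostly low. The mean over the 6 induced libraries ranged from 1.52 to 47.8 FPKM with a median of 3.63. It was 10 FPKM or more for 5 genes, 5 to 10 for 3 and under 5 for 20. Of the 84 values in MSC libraries 31 were 0, and the highest was 0.0975 FPKM. These levels follow from the limits that chose the genes and are given without a test.

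**Figure D1:**
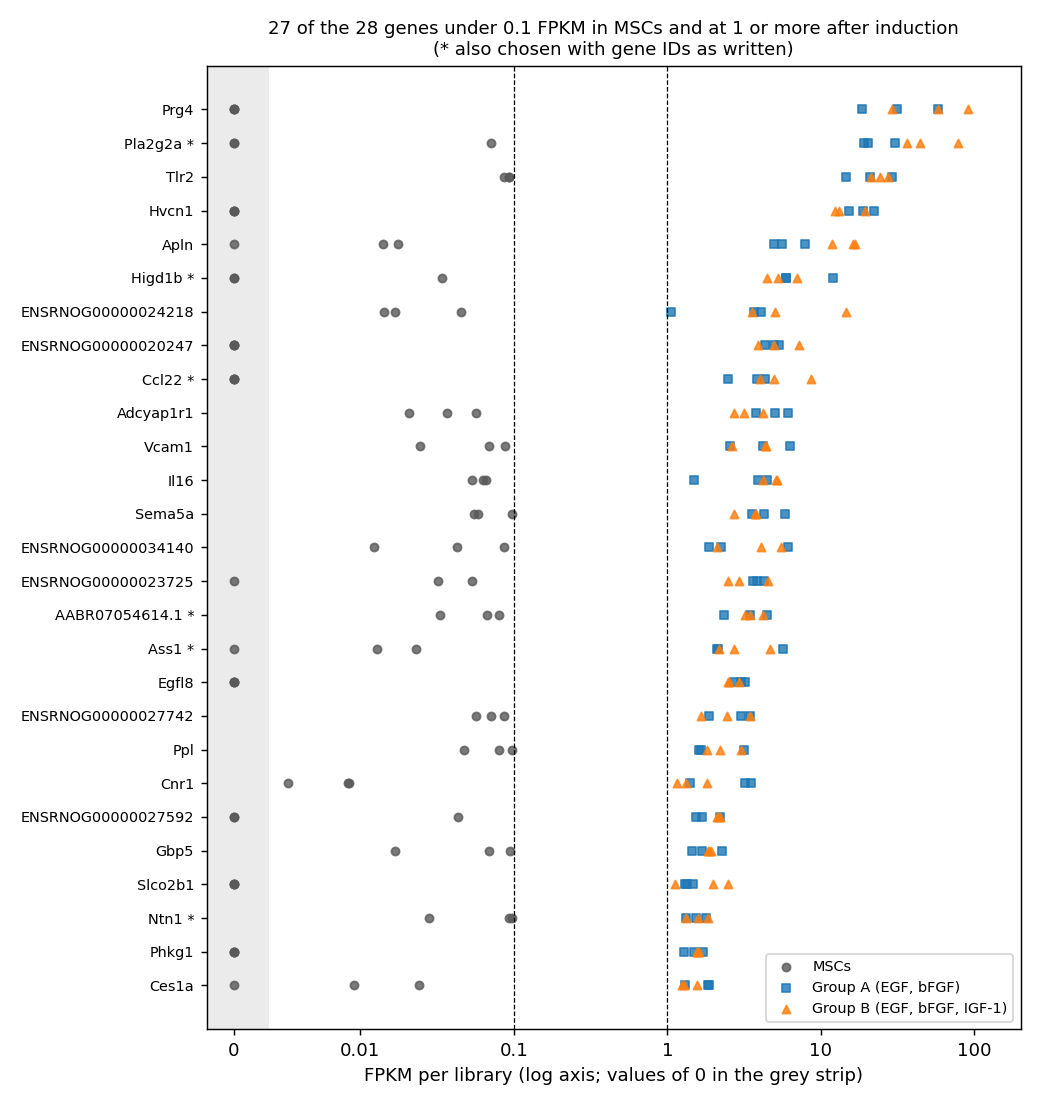
FPKM of 27 of the 28 genes in each of the 9 libraries on a log axis, 1 point per library, with values of 0 in the grey strip and the limits of 0.1 and 1 FPKM as dashed lines. All MSC points lie at 0.0975 FPKM or lower, and the induced points run from 1.05 to 91.3.

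Of the innate immune genes, Pla2g2a, Tlr2 and Hvcn1 were among the 5 genes at a mean of 10 FPKM or more, and Gbp5 was among the 6 under 2 FPKM. Pla2g2a, a secreted phospholipase that cleaves bacterial membrane lipids, was listed at 0, 0 and 0.0715 FPKM in MSCs. It stood at 20.4, 19.1 and 30.5 FPKM in Group A and at 36.5, 44.6 and 78.9 in Group B. Every Group B library was above every Group A library.

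Tlr2, a receptor for bacterial lipoproteins, was at 0.0937, 0.093 and 0.0868 FPKM in MSCs, close under the limit in each. Its levels were 14.7, 21 and 29 FPKM in Group A and 24.4, 21.2 and 27.5 in Group B, and the groups overlapped. Gbp5, an interferon-induced GTPase, reached a mean of 1.8 ± 0.414 FPKM (SD, n = 3) in Group A and 1.88 ± 0.0402 (SD, n = 3) in Group B.

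Hvcn1, a voltage-gated proton channel best known from phagocytes, was listed at 0 in all 3 MSC libraries. Its levels were 18.9, 15.3 and 22.2 FPKM in Group A and 19.5, 13.1 and 12.3 in Group B. In all 6 induced libraries the whole of this FPKM came from unannotated isoforms, which began 20530 to 20990 bases upstream of the annotated start of the gene. The MSC values of 0 are those of the annotated transcript, so different isoforms are compared. In Control replicates 1 and 3 the gene stood under a provisional ID, where unannotated isoforms can have been left out of the sum.

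Several of these genes are known from blood cells, so markers of such cells were looked up. Of 12 myeloid markers 3 could be matched by name. Names came only from tables of the study, which matched 2451 gene IDs, so an unmatched marker can still be expressed here. The levels of the unmatched markers were not looked up. Cd68, a lysosomal protein, was at 0.226 to 0.502 FPKM in MSCs, 9.54 to 11.4 in Group A and 8.93 to 14.4 in Group B. Ptprc (CD45), which all leukocytes carry, was at most 0.00491 FPKM in MSCs, 0 in Group A and at most 0.0142 in Group B, and Aif1 was at most 0.0403 in any library. The summed level of the 3 was 0.231 to 0.502 FPKM in MSCs, 9.54 to 11.4 in Group A and 8.97 to 14.4 in Group B, nearly all of it Cd68. Cd7, the only lymphocyte marker matched of 6, was 0 in MSCs, 0.362 to 0.636 FPKM in Group A and 0.18 to 0.999 in Group B. The part of such cells in the levels of the members was not tested.

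Of the secreted ligands, Apln, the peptide ligand of the apelin receptor, was at 0, 0.0175 and 0.014 FPKM in MSCs. It stood at 5.57, 7.9 and 4.95 FPKM in Group A and at 16.6, 16.3 and 11.8 in Group B. No Group B library overlapped Group A.

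Ccl22, a chemokine that draws regulatory and helper T cells, was listed at 0 in all 3 MSC libraries. Its levels were 2.49, 3.84 and 4.3 FPKM in Group A and 8.68, 4.94 and 4.02 in Group B, where 1 library was high and the other two lay near or within the Group A range. Il16, a chemoattractant for CD4+ cells, had a mean of 3.28 ± 1.58 FPKM (SD, n = 3) in Group A and 4.83 ± 0.551 (SD, n = 3) in Group B.

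Of the axon guidance cues, Sema5a lay near Il16 (means of 3.99 and 4.05 FPKM over the 6 induced libraries), and Ntn1 was lower. Sema5a, a semaphorin, was at 4.57 ± 1.19 FPKM (SD, n = 3) in Group A and 3.41 ± 0.616 (SD, n = 3) in Group B. Ntn1, the guidance factor netrin-1, was at 1.53, 1.8 and 1.33 FPKM in Group A and at 1.32, 1.58 and 1.85 in Group B, with 0.097, 0.0281 and 0.0934 in MSCs.

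Prg4, the joint lubricant lubricin, had the highest mean of the 28 genes. It was listed at 0 in all 3 MSC libraries, at 18.6, 31.6 and 58 FPKM in Group A and at 29.3, 58.2 and 91.3 in Group B. The spread within each group was wide and the groups overlapped. Levels rose with the replicate number in both groups, and each Group B library was above the Group A library of the same number. The labels do not say whether these numbers match. Egfl8, a secreted protein with EGF-like repeats, was listed at 0 in MSCs and varied little, at 2.98 ± 0.247 FPKM (SD, n = 3) in Group A and 2.66 ± 0.254 (SD, n = 3) in Group B. It stood under a provisional ID in every library except Control replicate 2, so unannotated isoforms can have been left out of its sums.

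Among receptors and adhesion molecules, Adcyap1r1, the receptor for the neuropeptide PACAP, was at 0.0366, 0.0571 and 0.0208 FPKM in MSCs. It stood at 5.02, 3.79 and 6.15 FPKM in Group A and at 4.18, 2.73 and 3.16 in Group B. Vcam1, an adhesion molecule for leukocytes that stromal cells can carry, was at 4.35 ± 1.84 FPKM (SD, n = 3) in Group A and 3.77 ± 0.994 (SD, n = 3) in Group B.

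Cnr1, the cannabinoid receptor CB1, was at 0.00833, 0.00337 and 0.00845 FPKM in MSCs. Its levels were 3.51, 3.22 and 1.4 FPKM in Group A and 1.82, 1.32 and 1.15 in Group B, so 1 Group A library fell within the Group B range.

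Higd1b, a mitochondrial protein used as a marker of pericytes, was at 0, 0 and 0.034 FPKM in MSCs. It stood at 5.96, 12 and 5.91 FPKM in Group A and at 7, 5.23 and 4.44 in Group B. Of the 8 pericyte markers 6 were matched by name, and they did not move as 1 group: Abcc9 averaged 1.42 ± 0.335 FPKM in MSCs (SD, n = 3) and 0.392 ± 0.0727 (SD, n = 3) in Group A, while Cox4i2 was at 0.533 ± 0.231 and 20.4 ± 6.07 (SD, n = 3 each).

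Of the enzymes and transporters, Ass1, which makes argininosuccinate in the urea cycle and in arginine synthesis, was at 2.13, 2.12 and 5.7 FPKM in Group A and at 4.7, 2.18 and 2.72 in Group B. A single library of each group stood above the others. Ces1a, a carboxylesterase, and Phkg1, a catalytic subunit of phosphorylase kinase, lay lower, with Group A means of 1.68 ± 0.316 and 1.5 ± 0.212 FPKM (SD, n = 3 each). Slco2b1, an organic anion transporter, was at 1.37 ± 0.0953 FPKM (SD, n = 3) in Group A. In Group A replicate 1, 72.9% of its level sat on an unannotated isoform of 1 exon. Unannotated isoforms carried 80.4% and 84.2% of it in Group B replicates 2 and 3. Ppl, the desmosomal plakin periplakin, was at 2.13 ± 0.871 FPKM (SD, n = 3) in Group A, and AABR07054614.1 at 3.41 ± 1.06 (SD, n = 3).

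The other 6 genes have no name in the tables used. The highest of them were ENSRNOG00000024218, at 2.92 ± 1.63 FPKM (SD, n = 3) in Group A and 7.74 ± 6.02 (SD, n = 3) in Group B, and ENSRNOG00000020247, at 4.87 ± 0.528 and 5.35 ± 1.69 (SD, n = 3 each). In the first, the 6 induced libraries ran from 1.05 to 14.6 FPKM. Of the 14.6 FPKM in Group B replicate 1, 86.4% sat on an unannotated isoform of 207 bases, against 1548 annotated bases. The Group B mean rests in part on this short isoform.

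The genes were spread over the genome. In the coordinates of the deposited files, for which no build was named, the 28 genes lay on 12 chromosomes. The closest pair on 1 chromosome, ENSRNOG00000027742 and Ass1 on chromosome 3, was 4670 kb apart. The longest annotated transcripts ran from 597 to 10501 exonic bases with a median of 1780, against 1879 for the 5849 genes that had an annotated transcript of at least 300 bases and 1 FPKM or more in all induced libraries.

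The median coefficient of variation was 26.6% in Group A and 24.1% in Group B, and 15.3% and 9.49% over the 5849 genes. The median level of those 5849 genes was 9.52 FPKM, higher than that of the 28, and the part of the level in this spread was not tested.

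Unannotated isoforms carried much of the FPKM of some genes. For Hvcn1, Apln and Adcyap1r1 they carried all of it in the 6 induced libraries, and for 9 of the 28 genes they carried none in any. The 9 include the 6 genes of both sets, whose ID had to be written in every induced library. Where the ID of a member is written, no unannotated isoform is listed with it, so their share was fixed by the choice. The unannotated share exceeded the annotated one in 6 of the 28 genes, and in 12.1% of the 5849. Over the 28, the median share of the FPKM added over the induced libraries was 11.1%, against 9.89% for the 5849 genes. The main isoform of Apln held 3 exons and 3042 to 3174 bases, against 1274 annotated bases, and ran 1766 to 1777 bases past the annotated 3' end. For Cnr1 the whole level sat on an unannotated isoform in Group A replicate 2 and on the annotated transcript in the other 5 libraries.

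**Figure D2:**
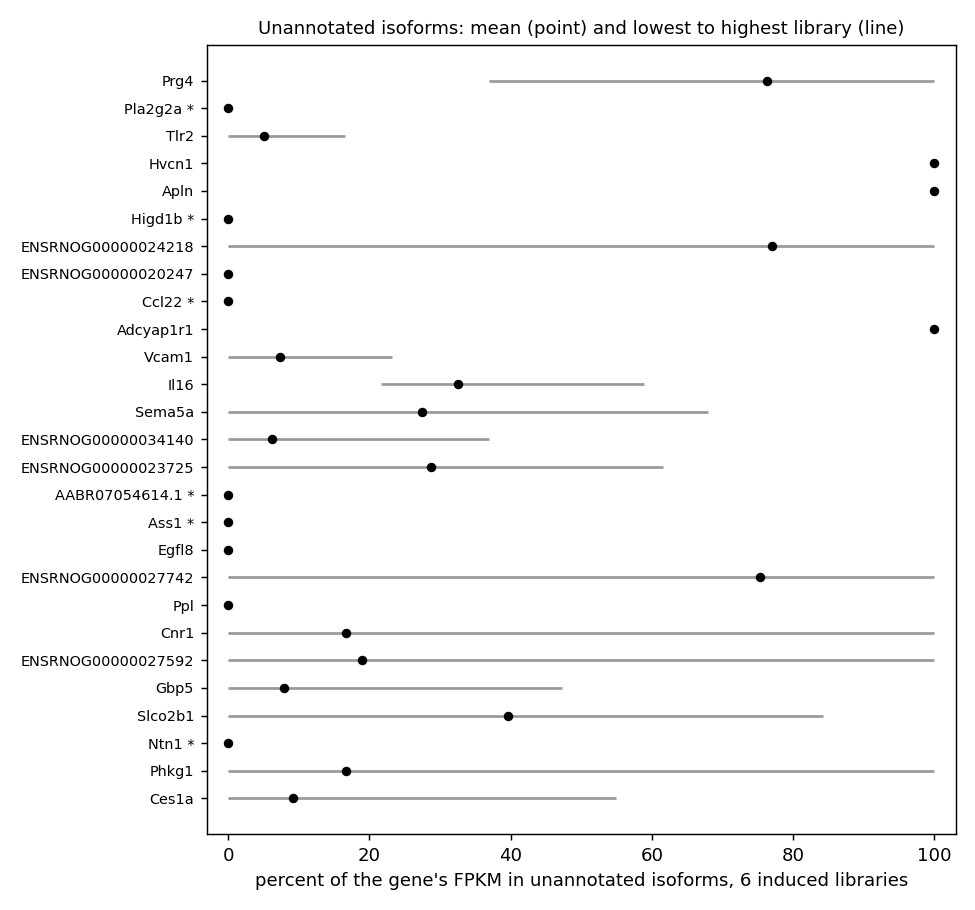
Percent of the FPKM of 27 of the 28 genes that sits on unannotated isoforms in the induced libraries, as the mean (point) and the lowest to highest of 6 libraries (line); * marks the 6 genes also chosen with gene IDs as written. Hvcn1, Apln and Adcyap1r1 are at 100% in every library. All 6 marked genes are at 0, which follows from how they were chosen: a library that writes their gene ID lists no unannotated isoform.

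The comparison of Group B with Group A asks what IGF-1 changed when added to EGF and bFGF, and the limits that chose the genes set no direction for it. They do ask for 1 FPKM or more in both groups, so genes low in either group are left out, and the differences that members can show are limited. In a limma fit of 14182 genes, 3 passed both an adjusted p limit of 0.05 and a log2 difference limit of 1 in size, which is 0.0212%. With gene IDs as written in each file the share called was 0.683%. There a gene counts as 0 in any library where it stands under a provisional ID, so a missing ID can make a difference between the groups. None of the 28 genes was called, and none of the 17. At an unadjusted p under 0.05 there were 3 of the 28 (Apln, Pla2g2a and Cnr1) and 3 of the 17 (Pla2g2a, ENSRNOG00000019851 and Pln), where 4.63% of all genes tested passed. Groups A and B did not overlap for 2 of the 28, for 2 of the 17 (Pla2g2a and ENSRNOG00000019851), all higher in Group B, and for 9.55% of all genes. The median log2 difference was 0.07 over the 28, 0.02 over the 17 and 0 over all genes.

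Apln had the smallest p of the 28. Its log2 difference was 1.26 (SE 0.22, 95% interval 0.76 to 1.77, limma adjusted p = 0.309), and it was higher in 3 of 3 Group B libraries. For Pla2g2a it was 1.13 (SE 0.36, interval 0.32 to 1.93, limma adjusted p = 0.982), also in 3 of 3 libraries. For Cnr1 it was -0.81 (SE 0.34, interval -1.59 to -0.04, limma adjusted p = 1). With annotated transcripts alone the Cnr1 difference turned to 0.83, and Apln, whose annotated transcript is at 0 in all 6 induced libraries, could not be tested.

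The role lists, which were matched only in part by name and include the members described above, held no called gene, where 0.0212% of all genes were called. These were 23 innate immune genes tested (median log2 difference 0.05), 25 secreted ligands (0.15), 23 receptors and adhesion molecules (-0.04), 22 metabolic enzymes (-0.11), 21 matrix genes and proteases (-0.08), 18 channels and transporters (0.02) and 9 genes that insulin and FoxO signalling control (0.24).

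The intervals limit what can be said of the others. For 18 of the 28 genes the 95% interval lay within -1 to 1 on the log2 scale, and for 10 it reached 1 or more in size. Tlr2 differed by 0.21 (interval -0.34 to 0.76) and Ntn1 by 0.01 (interval -0.58 to 0.6). For Prg4 the difference was 0.71. Its interval of -0.35 to 1.78 leaves a difference of either sign possible in this fit, which does not match libraries by replicate number.

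**Figure D3:**
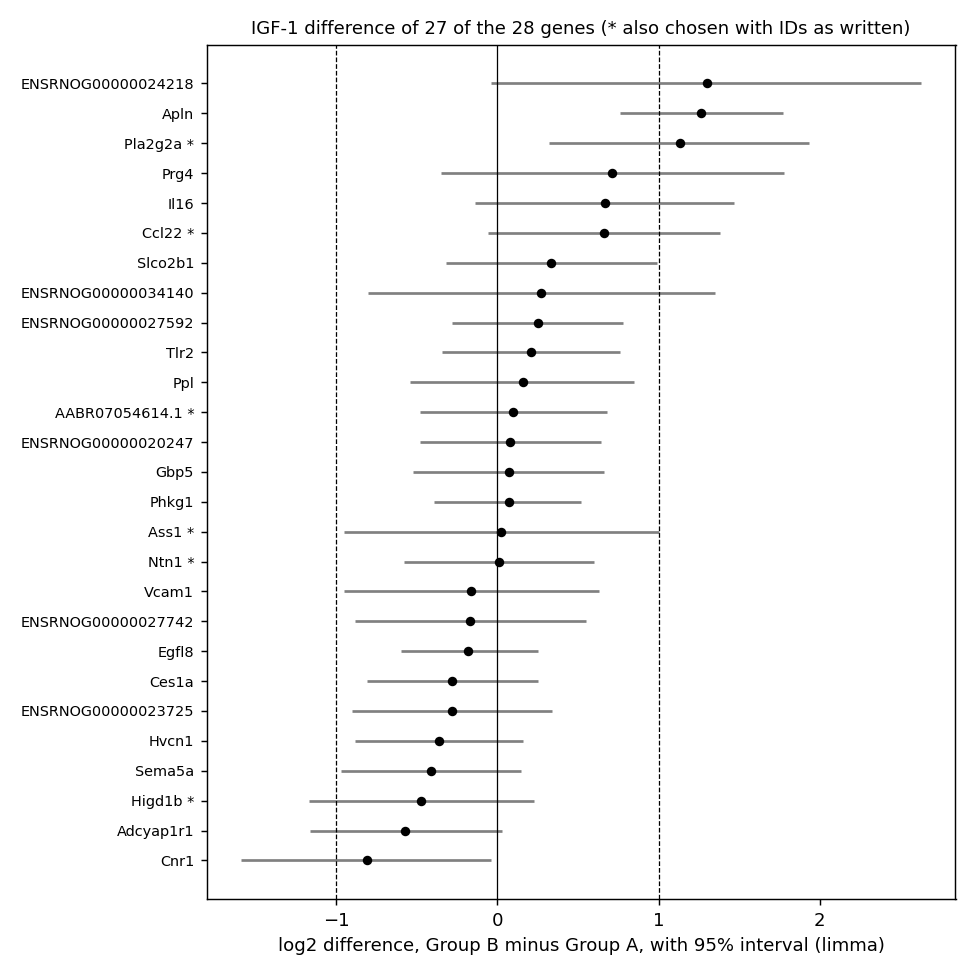
Log2 difference of Group B minus Group A for 27 of the 28 genes with its 95% interval from limma (9 libraries), the lines at -1 and 1 marking the size needed for a call; * marks genes also chosen with gene IDs as written. The points run from -0.81 (Cnr1) to 1.3 (ENSRNOG00000024218), and no gene passed the adjusted p. The difference of ENSRNOG00000024218 rests in part on an unannotated isoform of 207 bases in Group B replicate 1.

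The 11 genes that were chosen only because their ID is not in the MSC files showed other patterns once the ID was carried. For 9 of them every MSC library was above every induced library. Myl9, a myosin light chain of smooth muscle, was at 991, 947 and 887 FPKM in MSCs, against 15.6, 14.4 and 36.9 in Group A and 33.6, 15.6 and 11.2 in Group B. Prss23, a serine protease, averaged 415 ± 83.3 FPKM in MSCs and 25.4 ± 7.64 in Group A (SD, n = 3 each). Pln, the calcium pump regulator phospholamban, was at 74.7 ± 9.84 and 3.68 ± 1.19 FPKM, and Mlana at 11.1 ± 4.88 and 2.51 ± 1.01 (SD, n = 3 each).

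Among those without a name, ENSRNOG00000017469 averaged 525 ± 144 FPKM in MSCs and 349 ± 57.5 in Group A, and ENSRNOG00000023226 at 609 ± 49.2 and 169 ± 25.9 (SD, n = 3 each). ENSRNOG00000018836 was at 76.6 ± 21.3 and 18.7 ± 2.96 FPKM, and ENSRNOG00000019851 at 22.6 ± 5.04 and 4.87 ± 1.14 (SD, n = 3 each). In Group B the latter was at 10.9 ± 4.58 FPKM (SD, n = 3), with every library above Group A, and its log2 difference of Group B minus Group A was 1.07 (SE 0.3, 95% interval 0.39 to 1.75, limma adjusted p = 0.92). The libraries of ENSRNOG00000017469 overlapped between MSCs and induced cells. Kifbp, a kinesin-binding protein, lay close together in all groups, at 11.3 ± 0.427 FPKM in MSCs and 10.1 ± 0.561 in Group A (SD, n = 3 each).

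Txnip, an inhibitor of thioredoxin, was the 1 gene of the 11 with all MSC libraries below all induced ones. It was at 1.8, 2.07 and 1.96 FPKM in MSCs, 385, 273 and 111 in Group A and 236, 366 and 257 in Group B. It was therefore not under 0.1 FPKM before induction.

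The limits cut through a continuous range. Nearest inside the MSC limit with carried IDs were Ppl and Sema5a, with highest MSC values of 0.0975 and 0.0971 FPKM, and nearest outside were ENSRNOG00000019120 at 0.1 and Evpl at 0.11. Nearest inside the induced limit were ENSRNOG00000024218 and Slco2b1, with lowest induced values of 1.05 and 1.12 FPKM, and nearest outside were ENSRNOG00000003312 at 0.958 and Fxyd2 at 0.882. With IDs as written, Ntn1 was the nearest inside both limits (0.097 and 1.32 FPKM), Mmp9 was the nearest outside the MSC limit (0.129) and Fxyd2 outside the induced one. A further 5 transcript groups without a gene ID passed the same limits and are not counted.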

How the data were processed

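The 9 libraries were made from polyadenylated RNA with a stranded kit and read single-end. The deposited files list the transcripts that the authors assembled per library, with FPKM, its confidence interval and coverage in other attribute text. Per the labels the authors used CASAVA 1.8, bcl2fastq, TopHat, Bowtie2, Cufflinks and Cuffdiff, and name no genome build. The FPKM were normalised by the authors within each library, and read counts were not used here.

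FPKM were added per gene. A gene ID is written in all 9 files for 12075 of 20973 genes, and the same transcript stands under a provisional ID in other files. The rule as written gave 17 genes. Carrying the ID across files by transcript ID, a choice made after seeing the data, gave 28. Unannotated isoforms were left out where their provisional ID covered more than 1 gene or transcript group. There were 162 to 228 such IDs per library, which can lower the sum of a gene in that library. The fit used carried IDs. Members and lists were chosen with earlier results of these data known.

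Libraries were rescaled by the median of ratios. Then limma 3.58.1 in R 4.3.3, with the trend and robust options, was run two-sided on log2 values of FPKM plus 0.1 for genes at 0.1 FPKM in at least 3 libraries, with Benjamini-Hochberg adjustment. On this scale differences of low genes are understated. The fit was tested on simulated data for Group B against Group A: of 13907 genes, 74 of 100 changed by 1.5 (log2) and 99 of 100 changed by 3 were called, with 13 unchanged ones. The changed genes were drawn only from the better expressed ones, with normally distributed noise. They far outnumber the 3 genes called in the real data, which eases the adjusted p limit. These shares therefore do not give the power of the real comparison. Named genes were the highest 20 with a symbol in each reading, members of role lists, genes nearest the limits and the highest 4 without a symbol in the first reading; the remaining named members, 2 unnamed IDs of the second reading and ENSRNOG00000027742 were added after their values were seen. The values of 1 of the 28 genes are not reported here, though it is in the counts. Names came from tables of the study (2451 IDs matched). Alternatives were other pseudocounts, filters, scalings, limits, the replicate block and leaving out each library. Depths were read from the deposited confidence intervals, which cover counting error only.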

Additional observations from a re-analysis of the deposited data

How the results depend on the processing

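The number of genes silent in MSCs and switched on was 17 with IDs as written and 28 with IDs carried across files, a reading chosen after seeing the data, and 6 genes were shared. With IDs as written, the other limits gave 14 to 21 genes, and leaving out 1 library gave 19 to 36, the highest without Control replicate 1 (36), followed by 28 without Control replicate 3 and 27 without Control replicate 2. With IDs carried, the number was 14 at an MSC limit of 0.05 FPKM, 47 at an induced limit of 0.5, 15 at an induced limit of 2 and 16 with annotated transcripts alone, and 28 to 37 when 1 library was left out. No member of either set was called for IGF-1 under any alternative run, though with IDs as written only 15 of the 28 genes could be tested, and with annotated transcripts alone 24. The number of all genes called for IGF-1 was 3. It was 5 with no filter on low values, 5 without the trend, 19 with annotated transcripts alone and 48 of 7025 (0.683%) with IDs as written, and 2 to 10 when 1 library was left out, with 10 without Group A replicate 2, Group B replicate 1 or Group B replicate 2. With the replicate number as a block it was 1. The count with IDs as written can hold differences made by an ID missing from a library, where the gene counts as 0. Over all genes, the deviations of same-numbered Group A and Group B libraries had correlations of -0.0345, 0.0232 and 0.0479. Correlations this near 0 over mostly unrelated noise cannot show whether the numbers pair the samples. The Cnr1 difference reversed to 0.83 with annotated transcripts alone, where Group A replicate 2 has its level on an unannotated isoform. The adjusted p of Apln ran from 0.199 to 1 over the alternatives that could test it. For Pla2g2a the limma adjusted p was 0.292 with the replicate number as a block, against 0.982 in the main fit. Since read counts were not used here, precision at low FPKM is known only from the deposited intervals.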
